A study of Homo sapiens with 6 samples.

Results

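The chaperone and co-chaperone genes described here are the symbols of the array's probe annotation that belong to the HSP70 and HSP110, small heat shock protein, chaperonin, HSP90, J-domain, BAG and FKBP families by their first letters, plus PPID, HSF1 and HSF2. By this rule 32 of the 14884 named genes were members, each read from its brightest probe set (by the mean of the 6 arrays). The arrays measured total RNA of the established human cell line U-87 MG, grown from a glioblastoma, in 3 cultures exposed for 54 h to electromagnetic fields and in 3 unexposed cultures, each labelled an independent biological replicate. Exposure began 24 h after seeding, and the fields were aimed at 4 molecules, of which HSP70 (the 70 kDa heat shock protein) is the protein product of members of the set. The other 3 were the microRNA miR-381, a mutated alpha-kinase 2 gene and the secreted protein CHI3L1. Exposed dishes stood in a culture box inside a Faraday chamber and unexposed dishes in a box outside it, so a difference that comes with the field cannot be told apart from one that comes with the box. The description of the exposed samples also carries the word control, whereas their titles and source names do not.

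The working label of the set, cytosolic chaperones and J-domain co-chaperones, went further than the data. Of 108 protein-coding genes in RefSeq's gene table (GRCh38.p14) that the rule takes in, 27 had a named probe set and 81 were not analysed here. The 81 hold all 45 DNAJ genes, which encode the J-domain co-chaperones, and all 9 CCT chaperonin genes, so no DNAJ protein gene and no CCT subunit is among the members. The constitutive HSP70 gene HSPA8, the 2 cytosolic HSP90 genes and HSF2 were not analysed either. The 2 DNAJC symbols among the members, DNAJC9-AS1 and DNAJC27-AS1, are antisense noncoding RNAs. A further noncoding readthrough transcript (HSPB2-C11orf52) and 2 transcribed pseudogenes (HSPA7 and FKBP9P1) bring the members to 32, and HSPA9, HSPD1 and FKBP7 encode proteins of mitochondria or the endoplasmic reticulum. The set is therefore best read as HSP70, its exchange factors, small heat shock proteins and prolyl isomerases.

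Chaperones bind unfolded stretches of other proteins and let them fold. HSP70 does so in cycles driven by ATP: J-domain proteins bring the client and start ATP hydrolysis, and exchange factors such as the HSP110 and BAG proteins release the ADP and then the client. Small heat shock proteins hold unfolding proteins without ATP, and HSP90 takes over late clients together with prolyl isomerases of the cyclophilin and FKBP families. The heat shock factor HSF1 switches many of these genes on by binding repeats of the letters GAA in alternating orientation, the heat shock element, and gliomas are known for high levels of several of them.

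Values are log2 expression per probe set after RMA, so a difference of 1 is a doubling, and each change is exposed minus unexposed with its standard error (SE) from limma. Array medians lay between 3.96 and 3.99, and pairs of arrays correlated over all probe sets at 0.987 to 0.988 among exposed cultures, at 0.985 to 0.986 among unexposed cultures and at 0.982 to 0.987 across groups. Unexposed replicate 2 stood farthest out on the principal component that separated the groups, where exposed arrays scored 19.1 to 39.3, against -47.2 for this array and -22.2 and -15.3 for the other unexposed arrays. On the next component, with 20.5% of the variance, unexposed replicate 1 stood apart at 53.1, and the other arrays lay between -32.5 and 2.58. All 10 glioma markers had a probe set, with mean levels of 7.55 to 7.61 in exposed and 7.67 to 7.70 in unexposed cells, and among them SOX2 (3.62 in exposed and 3.57 in unexposed cells) and S100B (3.26 in exposed and 3.68 in unexposed cells) lay below the array medians. Of 6 microglial markers 2 were measured, with mean levels per array of 9.02 to 9.05 in exposed and 8.82 to 8.96 in unexposed cells. These averages are set by the lysosomal gene CD68 (12.30 in exposed and 12.24 in unexposed cells), while the receptor gene CSF1R lay at 5.77 in exposed and 5.57 in unexposed cells. Mean levels were 3.48 to 3.52 in exposed and 3.13 to 3.46 in unexposed cells for 2 of 4 endothelial genes. For 2 of 4 neuronal genes they were 4.95 to 5.04 in exposed and 4.68 to 5.01 in unexposed cells, and for 3 of 4 epithelial genes 5.75 to 5.95 in exposed and 5.69 to 5.85 in unexposed cells. Of these marker genes EGFR passed the test, at -0.30 (SE 0.05, limma adjusted p = 0.0348). In RNA from whole cultures, fewer cells of a kind and less RNA per cell cannot be told apart.

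Exposed cells had more RNA of the inducible HSP70 genes HSPA1A and HSPA1B, of the HSP110 exchange factors HSPH1 and HSPA4L, of the small heat shock gene HSPB1, of the exchange factor BAG3 and of the cyclophilin PPID. They had less RNA of BAG1, another exchange factor of HSP70. The changes were modest, between 1.22-fold for BAG3 and 1.60-fold for PPID upward and 0.64-fold for BAG1. In limma with Benjamini-Hochberg adjustment over all 14884 genes, 7 of 32 members (21.9%) were higher and 1 (3.13%) was lower, where 1.40% of all genes were higher and 1.67% were lower. The share of lower members is thus near that of all genes, and it rests on BAG1. The families were chosen with earlier results of these data known, so these shares describe the set and were not tested. PPID is the only cyclophilin that the rule names, and others stand in the partner list. Over the 32 members the median log2 change was 0.17, beside 0.0029 over all genes. Counted as protein-coding genes with HSPA1A and HSPA1B as 1, a count chosen after seeing the data, 6 of 26 members were higher and 1 was lower, with a median of 0.20. In 14 members (43.8%) all exposed values lay above all unexposed values, against 13.2% of all genes, and in 2 members (6.25%), BAG1 and BAG5, all lay below, against 13.8% of all genes.

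**Figure D1:**
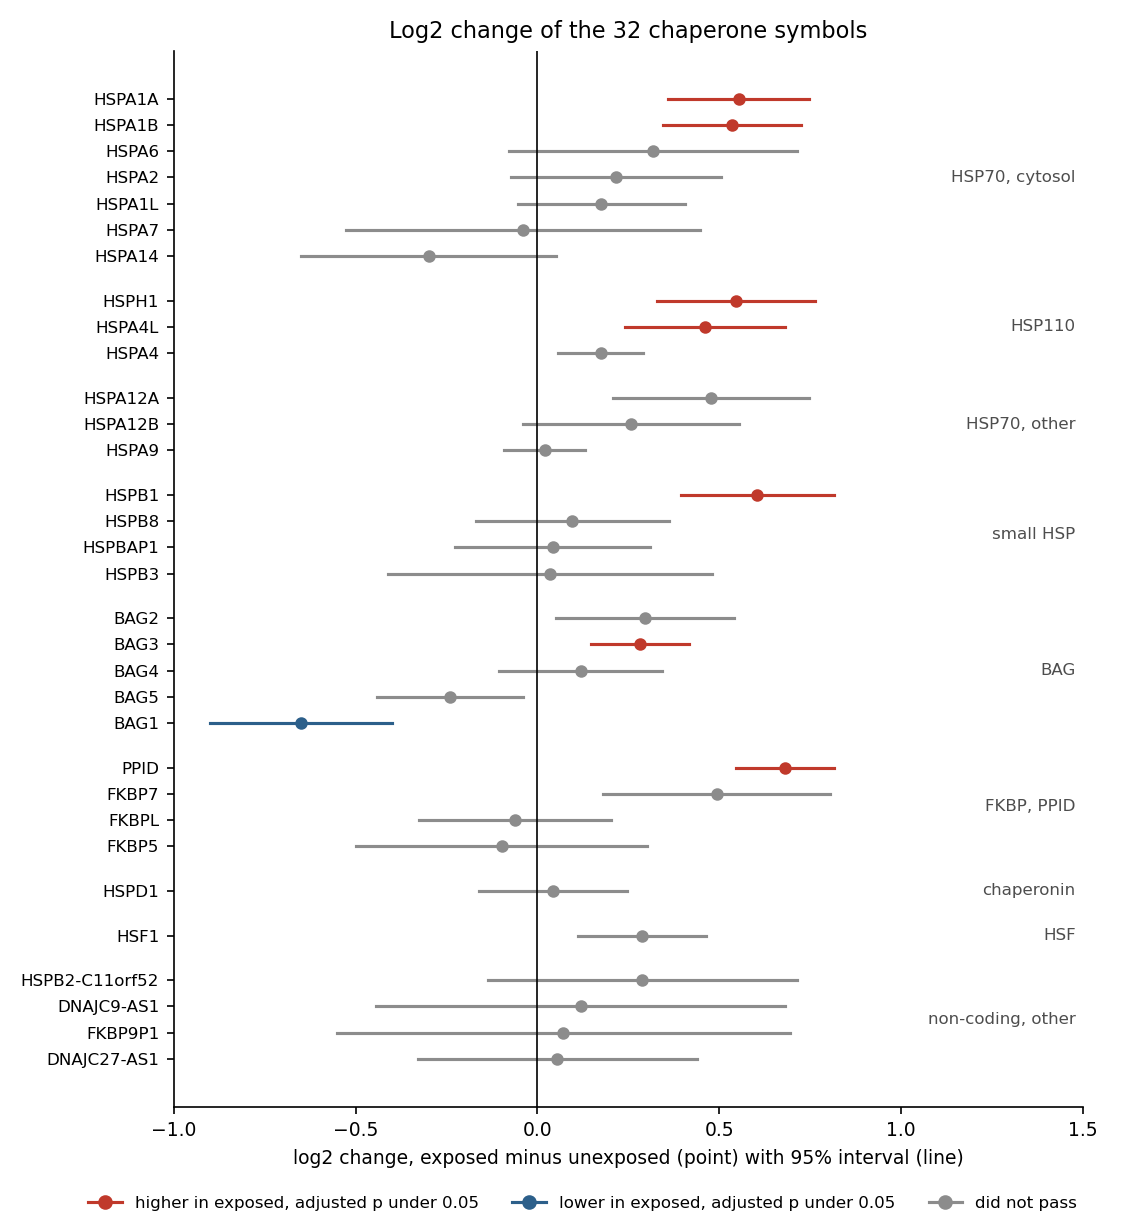
Log2 change (exposed minus unexposed, point) with its 95% interval (line) of the 32 members, by role from top to bottom; red and blue mark members past an adjusted p of 0.05, grey the others. The 7 higher members lie between 0.28 and 0.68, BAG1 lies at -0.65, and the noncoding members at the bottom have wide intervals across 0.

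The calls depended on single arrays. With exposed replicate 1 or 2, or unexposed replicate 2 or 3, left out, limma called 0 of 32 members. In these 4 settings 12 or 13 members had an unadjusted p under 0.05, against 14 (12 higher, 2 lower) with all arrays. Of all 14884 genes 1296 were higher and 1519 lower at that unadjusted p with all arrays. In the same 4 settings 974 to 1090 genes were higher and 1091 to 1233 lower. Without unexposed replicate 1 the called members were HSPB1 and PPID, and without exposed replicate 3 they were 6, with BAG3 and HSPA4L lost. Over all genes the calls were 0 in those 4 settings too, and without unexposed replicate 1 they were 34 higher and 33 lower. The calls also rested on the model of the variance: without its trend on level limma called 0 of 32 members, and without moderation it called PPID alone. Without the trend 11 members had an unadjusted p under 0.05, beside 1078 higher and 1142 lower of all genes. Over the 6 settings with an array left out the changes of the 8 called members lay within 0.38 to 0.69 for the 6 largest rises, 0.26 to 0.31 for BAG3 and -0.70 to -0.56 for BAG1.

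**Figure D2:**
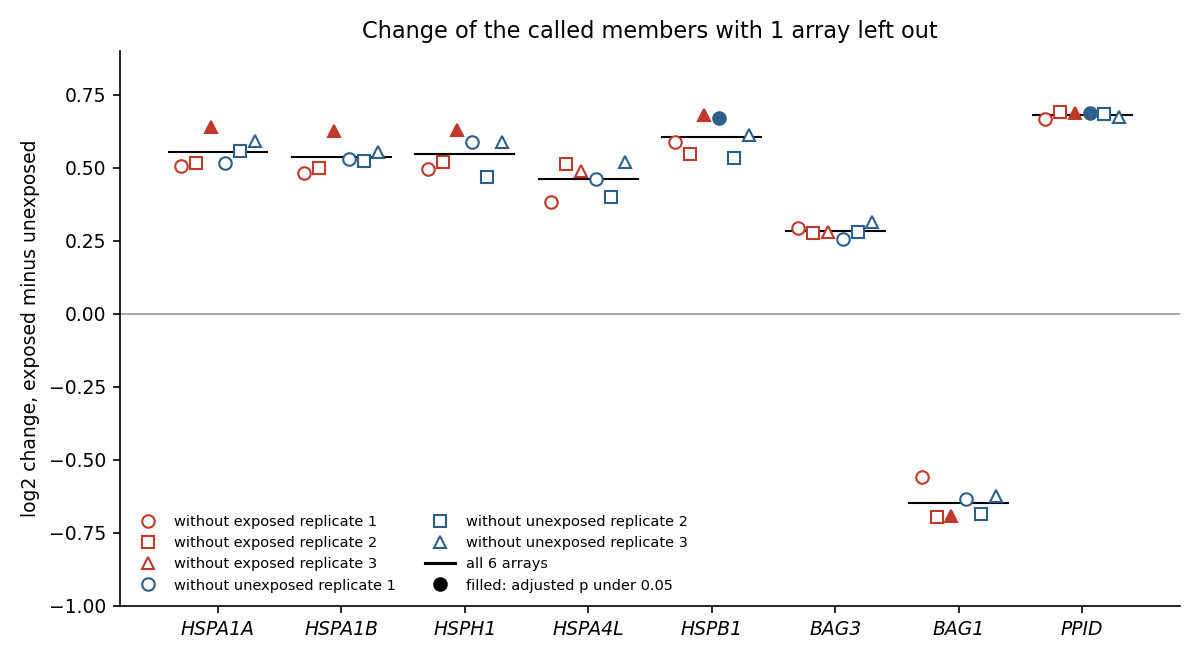
Log2 change (exposed minus unexposed) of the 8 called members with all 6 arrays (black line) and with each array left out in turn (symbols, filled where the adjusted p is under 0.05). The points of each gene stay close to its line, while few are filled.

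Because several of the members that rose are known targets of HSF1, the 250 bases before each annotated gene start (RefSeq, GRCh38.p14) were searched for heat shock elements, and 7 windows are shown to set the elements beside the responses. Of the 32 members 24 matched the promoter table, with 31 windows, since some genes have several starts. The motifs were GAANNTTC and TTCNNGAA, which hold 2 units each and read the same on both strands, and the form of 3 units, in which GAANNTTC and TTCNNGAA share the letters TTC (or, on the other strand, GAA), so that it contains both shorter motifs. Any of them occurred in 10 of the 24 members, that is in 10 of their 31 windows, and in 11.6% of all 35116 promoter windows. Capitals mark the matches, each window runs 5′ to 3′ on the strand of its gene, and HSPA1A and HSPB1 come first as called members with a match, then HSPA6 and HSPD1, which did not pass, and last the called members HSPH1, PPID and BAG1.
HSPA1A: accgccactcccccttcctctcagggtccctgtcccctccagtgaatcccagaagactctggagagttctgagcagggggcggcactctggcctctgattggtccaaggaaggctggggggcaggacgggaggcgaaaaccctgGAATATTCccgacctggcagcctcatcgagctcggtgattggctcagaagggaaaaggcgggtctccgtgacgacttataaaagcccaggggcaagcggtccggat
HSPB1: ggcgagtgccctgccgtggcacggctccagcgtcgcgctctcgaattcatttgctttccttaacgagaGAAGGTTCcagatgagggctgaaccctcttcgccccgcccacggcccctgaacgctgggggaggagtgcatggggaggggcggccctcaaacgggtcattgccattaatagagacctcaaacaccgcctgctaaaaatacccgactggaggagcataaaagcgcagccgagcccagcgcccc
HSPA6: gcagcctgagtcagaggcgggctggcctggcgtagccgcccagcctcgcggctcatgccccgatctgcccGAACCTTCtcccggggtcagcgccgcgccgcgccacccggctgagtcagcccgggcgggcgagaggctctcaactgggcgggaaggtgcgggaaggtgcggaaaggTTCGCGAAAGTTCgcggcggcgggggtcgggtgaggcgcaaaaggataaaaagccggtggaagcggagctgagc
HSPD1: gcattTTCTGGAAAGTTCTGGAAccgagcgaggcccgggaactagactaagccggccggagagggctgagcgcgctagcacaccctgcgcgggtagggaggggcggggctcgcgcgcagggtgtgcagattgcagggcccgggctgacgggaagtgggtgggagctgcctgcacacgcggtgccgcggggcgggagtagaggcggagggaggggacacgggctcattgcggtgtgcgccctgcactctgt
HSPH1: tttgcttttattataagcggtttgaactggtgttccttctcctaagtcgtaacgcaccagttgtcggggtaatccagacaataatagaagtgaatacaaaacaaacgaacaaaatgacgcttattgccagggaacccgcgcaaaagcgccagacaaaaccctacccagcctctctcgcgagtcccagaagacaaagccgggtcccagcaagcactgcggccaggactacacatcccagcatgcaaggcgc
PPID: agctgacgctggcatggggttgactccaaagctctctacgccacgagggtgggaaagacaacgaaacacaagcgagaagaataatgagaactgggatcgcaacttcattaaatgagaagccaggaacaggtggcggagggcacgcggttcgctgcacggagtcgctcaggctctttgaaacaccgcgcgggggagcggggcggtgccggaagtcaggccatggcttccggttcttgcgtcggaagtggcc
BAG1: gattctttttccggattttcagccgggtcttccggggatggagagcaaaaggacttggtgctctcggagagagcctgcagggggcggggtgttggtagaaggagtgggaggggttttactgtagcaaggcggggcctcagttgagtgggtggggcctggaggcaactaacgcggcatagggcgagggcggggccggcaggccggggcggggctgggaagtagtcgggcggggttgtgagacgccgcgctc
These lie at chr6:31815293-31815542 (+) for HSPA1A, chr7:76302423-76302672 (+) for HSPB1, chr1:161524290-161524539 (+) for HSPA6, chr2:197499841-197500090 (-) for HSPD1, chr13:31162389-31162638 (-) for HSPH1, chr4:158723397-158723646 (-) for PPID and chr9:33264709-33264958 (-) for BAG1.

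A match stood in 4 of the 8 called members and in 10 of all 24 members with a window. In these and the following counts HSPA1A and HSPA1B, whose signals the array cannot separate, stand as 2 members. The motif of 3 units occurred in 0.441% of all windows and in 2 members, HSPA6 and HSPD1, neither of which passed. GAANNTTC occurred in 5.78% of all windows and in 8 members, 3 of which rose (HSPA1A, HSPA1B and HSPB1) and 5 of which did not pass (HSPA1L, HSPA6, HSPB8, BAG2 and HSPD1). In HSPA1A the match lay 106 to 99 bases before the start and in HSPB1 182 to 175 bases before it. The window of HSPA1L overlaps that of HSPA1A on the opposite strand and holds the same match. TTCNNGAA occurred in 6.62% of all windows and in 4 members, of which HSPA4L rose, with the match in 1 of its 3 windows; HSPD1 has its matches in 1 of 2. HSPH1, BAG3, PPID and BAG1 held none of these letters within their windows. Elements farther upstream, past the start or with a differing letter were not searched, so these genes may still have them. HSPA1A and HSPA1B shared a run of 49 identical bases within their windows, 223 to 175 bases before the start of HSPA1A. The bases next to their match were identical in both windows as well, so the matches of this pair are not independent. Such matches describe letters and not binding.

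HSPA1A and HSPA1B are the stress-inducible genes of cytosolic HSP70, the protein at which the fields were aimed. HSPA1A (probe set 17026318, chromosome 6) had log2 values of 10.20, 10.18 and 9.93 in exposed cells, against 9.47, 9.55 and 9.62 in unexposed cells. The groups did not overlap, and exposed replicate 3 lay nearest to the unexposed arrays. Its change was 0.55 (SE 0.08), with an interval of 0.36 to 0.75. HSPA1B (17028007) had 10.14, 10.11 and 9.85 in exposed cells, against 9.49, 9.47 and 9.53 in unexposed cells, a change of 0.53 (SE 0.08). Both had a limma adjusted p of 0.0298. The genes are nearly identical in their coding sequence, so the array cannot assign the signal to either. The pair carried 10 probe sets, of which 8 held distinct values, and in all 10 the exposed values lay above the unexposed ones, with changes of 0.49 to 0.56. All 10 were read on the same 6 arrays, so these probe sets are not independent measurements of the change. Adjusted over all 53617 probe sets, their limma p-values lay between 0.0438 and 0.0530.

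Other HSP70 genes of the cytosol did not pass. HSPA1L, the testis-enriched neighbour of HSPA1A on the opposite strand, had 5.73, 5.72 and 5.70 in exposed cells, against 5.46, 5.70 and 5.46 in unexposed cells. The lowest exposed value lay just above the highest unexposed one, with a change of 0.18 (SE 0.10, interval -0.05 to 0.40). Its 5 probe sets, of which 3 held distinct values, had changes of 0.07 to 0.18, and in 1 of them the groups did not overlap. HSPA6, an HSP70 gene that most cells express under strong stress alone, had 5.12, 4.74 and 4.76 in exposed cells, against 4.75, 4.66 and 4.25 in unexposed cells. The groups overlapped, and the change of 0.32 (SE 0.17) had an interval of -0.08 to 0.71. It was 0.20 without exposed replicate 1 and 0.17 without unexposed replicate 3. For its pseudogene HSPA7 the change was -0.04 (SE 0.21), of either sign depending on the array left out. HSPA2, known for its role in sperm formation, had 7.57 and 7.61 in exposed replicates 1 and 3 and its highest value in exposed replicate 2, against 7.65, 7.46 and 7.43 in unexposed cells. The groups overlapped, and the change of 0.22 (SE 0.13) was 0.08 without exposed replicate 2. HSPA14, a ribosome-associated HSP70, was the member of this group with the lowest change, at -0.30 (SE 0.15, interval -0.65 to 0.05). Unexposed replicate 2 held its highest value, 7.61, and without that array the change was -0.14. Of the 7 cytosolic HSP70 symbols, 2 thus passed and 5 did not, with 5 positive and 2 negative values.

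**Figure D3:**
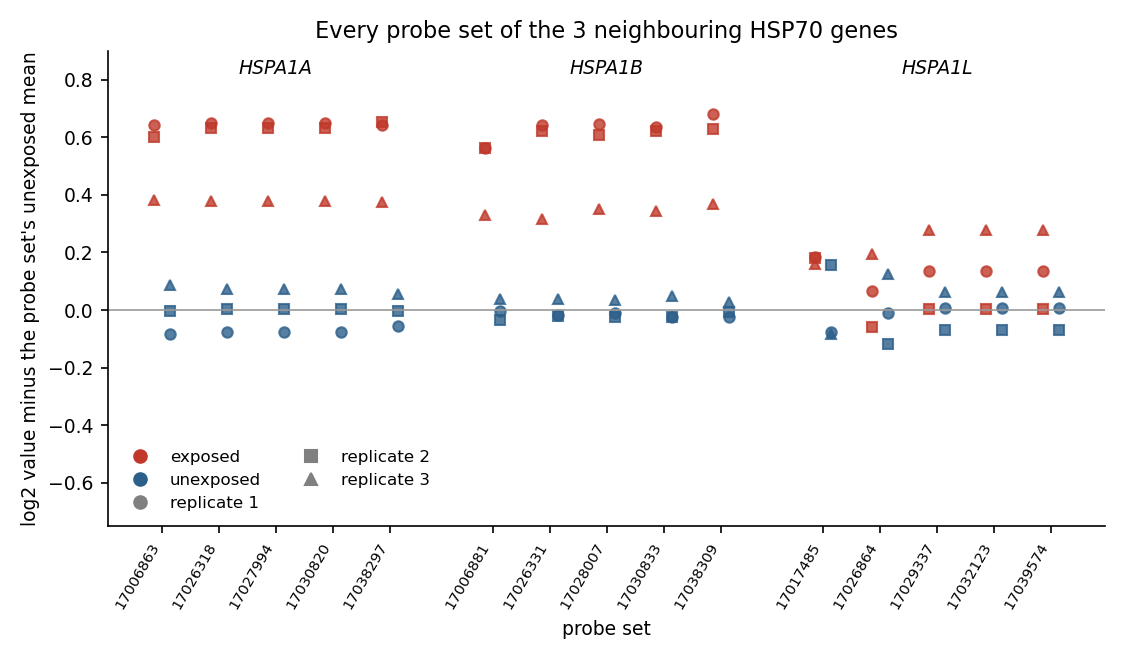
Values of each array on every probe set of HSPA1A, HSPA1B and HSPA1L, given as log2 value minus that probe set's unexposed mean (red exposed, blue unexposed, symbols for replicates). All exposed points of the 10 HSPA1A and HSPA1B probe sets lie above the unexposed ones, and exposed replicate 3 is the lowest exposed point in each; HSPA1L points lie close to 0.

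HSP110 proteins are large relatives of HSP70 that act as its exchange factors, and of the 3 measured genes 2 rose and 1 did not pass. HSPH1 (16777896, chromosome 13), also called HSP105, had 10.71, 10.66 and 10.44 in exposed cells, against 10.13, 9.90 and 10.13 in unexposed cells. The groups were apart by more than the spread within either, with a change of 0.55 (SE 0.09, interval 0.33 to 0.76, limma adjusted p = 0.0334). HSPA4L (16970536, chromosome 4) had 8.07, 7.82 and 7.87 in exposed cells, against 7.46, 7.34 and 7.58 in unexposed cells, a change of 0.46 (SE 0.10, limma adjusted p = 0.0474). With arrays centred on their medians its limma adjusted p was 0.0585. HSPA4, the constitutive HSP110, had a smaller difference on arrays that hardly varied: 9.34, 9.33 and 9.37 in exposed cells, against 9.18, 9.17 and 9.18 in unexposed cells. Its groups did not overlap, but the change of 0.17 (SE 0.05, interval 0.06 to 0.29) did not pass (limma adjusted p = 0.109).

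More distant HSP70 relatives and the mitochondrial chaperones did not pass. HSPA12A, an atypical HSP70 known from the brain, had 6.274, 6.002 and 6.294 in exposed cells, against 5.820, 5.556 and 5.760 in unexposed cells. Its groups did not overlap, with a change of 0.48 (SE 0.12, interval 0.21 to 0.75, limma adjusted p = 0.0727). A second probe set of the gene (16709686) had a change of 0.09. Its levels, 4.07 in exposed and 3.97 in unexposed cells, lay near the array medians. The probe sets thus differ in size, but the dim one says little about the change. HSPA12B, known from endothelial cells, had a change of 0.26 (SE 0.13, interval -0.04 to 0.55), and of 0.16 without exposed replicate 1. HSPA9, the HSP70 of mitochondria, had 11.59, 11.55 and 11.65 in exposed cells, against 11.59, 11.54 and 11.59 in unexposed cells. Its groups overlapped, and the interval of its change of 0.02 (SE 0.05), -0.09 to 0.13, ends below the interval of HSPA1A. HSPD1, the mitochondrial chaperonin HSP60, had 7.91, 7.61 and 7.79 in exposed cells, against 7.75, 7.67 and 7.77 in unexposed cells, a change of 0.04 (SE 0.09, interval -0.16 to 0.25).

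Among 4 members of the small heat shock group, HSPB1 rose and 3 did not pass. HSPB1 (17047504, chromosome 7), the HSP27 of most tissues, had 11.72, 11.80 and 11.54 in exposed cells, against 11.22, 10.94 and 11.09 in unexposed cells. The groups did not overlap, and the change was 0.60 (SE 0.09, interval 0.39 to 0.81, limma adjusted p = 0.0298). HSPB8, the small heat shock protein that works with BAG3 in autophagy of damaged proteins, had 4.77, 4.84 and 4.82 in exposed cells, against 4.76, 4.55 and 4.83 in unexposed cells. Its groups overlapped, and its change of 0.10 (SE 0.11) was 0.02 without unexposed replicate 2. The muscle gene HSPB3 had a change of 0.03 (SE 0.19) and HSPBAP1, a protein that binds HSPB1, one of 0.04 (SE 0.12).

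The BAG genes moved both ways. BAG proteins bind the ATPase domain of HSP70 through a shared domain and link it to different ends: BAG1 to the proteasome, BAG3 to autophagy. BAG1 (17093204, chromosome 9) had 5.04, 5.31 and 5.30 in exposed cells, against 5.89, 5.79 and 5.91 in unexposed cells. All exposed values lay below the unexposed ones, with a change of -0.65 (SE 0.11, interval -0.90 to -0.40, limma adjusted p = 0.0324). With arrays centred on ribosomal protein genes its change was -0.56 and did not pass (limma adjusted p = 0.0705). BAG3 (16709856, chromosome 10) had 8.72, 8.76 and 8.74 in exposed cells, against 8.40, 8.45 and 8.52 in unexposed cells. It rose by 0.28 (SE 0.06, interval 0.15 to 0.42), near the threshold at a limma adjusted p of 0.0464, and did not pass with arrays centred on their medians (limma adjusted p = 0.0596) or on ribosomal protein genes (0.0543). BAG2, an inhibitor of the ubiquitin ligase that acts on HSP70 clients, had 7.66, 7.58 and 7.47 in exposed cells, against 7.30, 7.08 and 7.44 in unexposed cells. Its groups were barely apart, with a change of 0.29 (SE 0.11, limma adjusted p = 0.180), and 0.20 without unexposed replicate 2. BAG5, an exchange factor with several BAG domains, had 6.81, 6.81 and 7.04 in exposed cells, against 7.08, 7.17 and 7.14 in unexposed cells. It thus lay on the side of BAG1, with a change of -0.24 (SE 0.09, interval -0.44 to -0.04) that did not pass (limma adjusted p = 0.183). BAG4, a silencer of death receptors, had overlapping groups and a change of 0.12 (SE 0.10), which was 0.05 without exposed replicate 2 and likewise 0.05 without unexposed replicate 3.

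**Figure D4:**
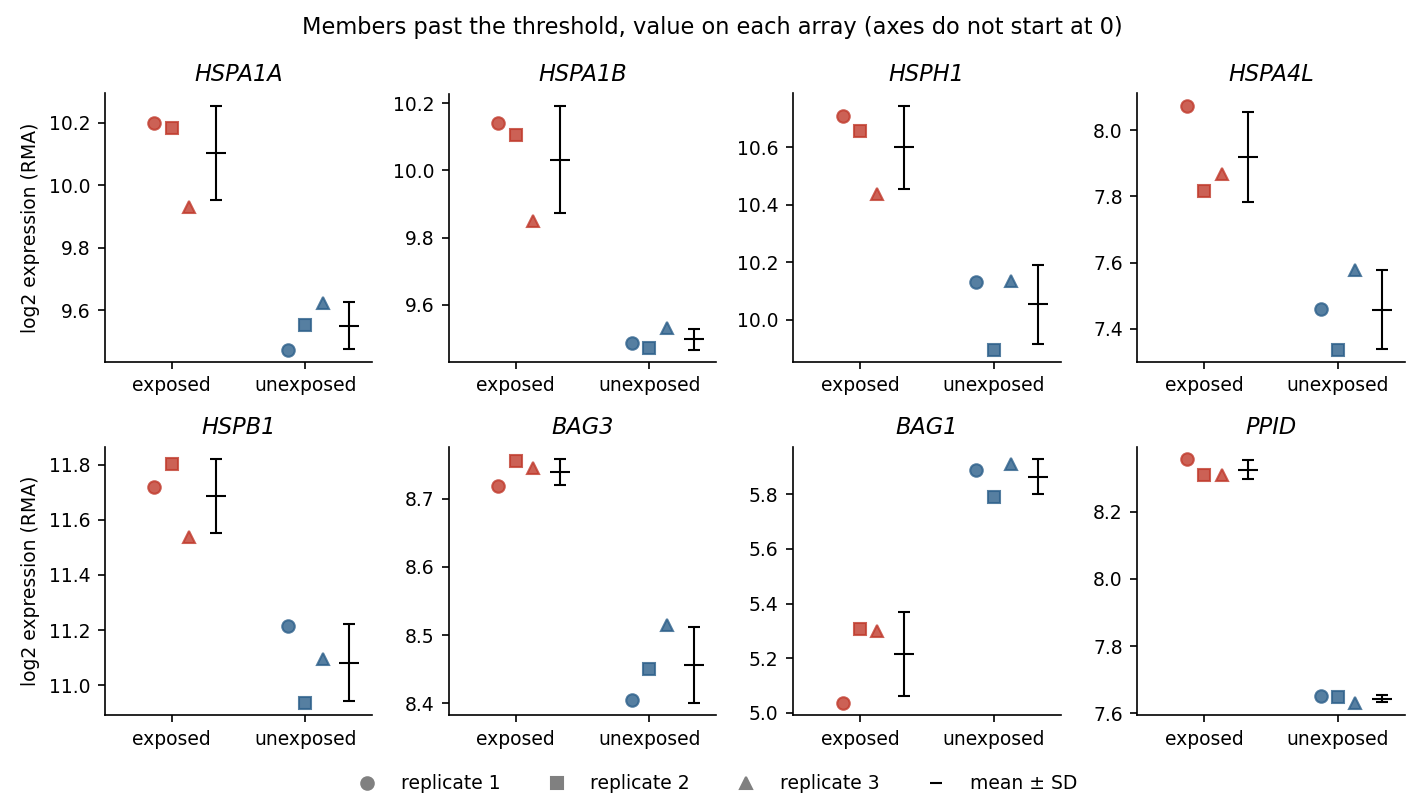
Log2 expression on each array of the 8 members past the threshold, exposed left and unexposed right of each panel, with the mean ± SD (black); the axes do not start at 0. In no panel do the groups overlap, and PPID has the smallest spread within groups for the size of its change.

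Prolyl isomerases turn the peptide bond before proline and several of them ride on HSP90. PPID (16981004, chromosome 4), the cyclophilin Cyp40 that binds HSP90 through its tetratricopeptide repeats, had 8.36, 8.31 and 8.31 in exposed cells, against 7.65, 7.65 and 7.63 in unexposed cells. The difference was many times the spread within the groups, with means of 8.32 ± 0.03 in exposed cells against 7.64 ± 0.01 unexposed (SD, n = 3 per group). Its change of 0.68 (SE 0.06, interval 0.55 to 0.81) was 1.60-fold, with a limma adjusted p of 0.0227, and its unadjusted p was the smallest of all genes. It was the member called in most alternatives, 10 of 16, and over all 16 its change lay between 0.67 and 0.77. FKBP7, an isomerase of the endoplasmic reticulum, had 6.22, 6.09 and 5.94 in exposed cells, against 5.34, 5.77 and 5.67 in unexposed cells. The groups did not overlap, but the change of 0.49 (SE 0.13, interval 0.18 to 0.80) did not pass (limma adjusted p = 0.0937). FKBP5, an HSP90 partner of steroid receptors that glucocorticoids induce, had 4.64, 4.53 and 4.74 in exposed cells, against 4.36, 4.95 and 4.89 in unexposed cells, with overlap and a change of -0.10 (SE 0.17). FKBPL, an HSP90 co-chaperone, had a change of -0.06 (SE 0.11), and its 2 probe sets repeated the same values.

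HSF1, the transcription factor of the heat shock response, had 9.11, 8.86 and 8.92 in exposed cells, against 8.68, 8.64 and 8.70 in unexposed cells (probe set 17073759). All exposed values lay above, most of all in exposed replicate 1, and the change of 0.29 (SE 0.08, interval 0.11 to 0.46) did not pass (limma adjusted p = 0.0868). Without exposed replicate 1 it was 0.21. Activation of HSF1 takes place on the protein, which these arrays do not read. The noncoding members and FKBP9P1 had changes of 0.05 to 0.29 with SE of 0.17 to 0.27 and overlapping groups, and with HSPB3 they were the 5 members that lay below the median level of all probe sets. The upper end of that range, HSPB2-C11orf52, gave 0.19 once exposed replicate 2 was left out and 0.15 once unexposed replicate 2 was.

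Of 46 listed partner genes outside the families (co-chaperones of HSP90, prefoldins, organelle chaperones) 30 were measured. In limma 1 rose, 0 fell and 29 did not pass, where 1.40% of all genes were higher and 1.67% were lower. At an unadjusted p under 0.05, 1 partner was higher and 6 were lower, beside 1296 higher and 1519 lower of all 14884 genes. The median change of the measured partners was -0.05, with 10 positive and 20 negative values. The member that rose was HYOU1, the HSP110 of the endoplasmic reticulum, with 9.24, 9.22 and 9.19 in exposed cells, against 8.78, 8.57 and 8.86 in unexposed cells, a change of 0.48 (SE 0.08, limma adjusted p = 0.0320). It did not pass with any 1 array left out (limma adjusted p 0.0537 to 0.124). STIP1, which also stands in the next list and bridges HSP70 and HSP90, had overlapping groups and a change of 0.12 (SE 0.07). PPIA, the most common cyclophilin of the cytosol, had 6.60, 6.43 and 6.70 in exposed cells, against 6.95, 7.13 and 6.99 in unexposed cells. Its change of -0.44 (SE 0.10, limma adjusted p = 0.0525) was thus opposite in sign to that of the cyclophilin PPID and did not pass. GAK, a kinase with a J-domain that uncoats clathrin vesicles, had a change of -0.24 (SE 0.06, limma adjusted p = 0.0836).

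Of 24 further genes linked to HSF1 in the literature 14 were measured, and in limma 1 rose, 0 fell and 13 did not pass, with a median of 0.05. The shares over all genes were 1.40% higher and 1.67% lower. At an unadjusted p under 0.05, 3 of the HSF1-linked genes were higher and 0 lower, beside 1296 higher and 1519 lower of all 14884 genes. Some of the measured genes, STIP1 among them, also stand in the partner list, so the 2 lists overlap. HMOX1, the haem-degrading enzyme that oxidative stress also induces, had 10.02, 10.19 and 9.84 in exposed cells, against 9.36, 9.28 and 9.31 in unexposed cells. It rose by 0.70 (SE 0.09, limma adjusted p = 0.0287), and with 1 array left out it passed in 1 of 6 settings, without exposed replicate 3. USPL1, a SUMO protease, had a change of 0.35 (SE 0.09, limma adjusted p = 0.0738) and MRPL18, a mitochondrial ribosomal protein gene, one of 0.22 (SE 0.07, limma adjusted p = 0.131), both without overlap of the groups. The early response gene IER5 had a change of -0.15 (SE 0.07) and CACYBP, an adaptor of a ubiquitin ligase, one of -0.06 (SE 0.08). Beside these lists, 12 of the 19 mitosis and G2/M genes on the array were lower in the same fit, where 1.67% of all genes were lower. Their median was -0.50, with all 19 values negative. Without the trend of variance on level, or without moderation, 0 of all genes were called lower, so these 12 were lost too. In limma 0 of 46 ribosomal protein genes passed (1 was higher and 2 were lower at an unadjusted p under 0.05), with a median of -0.09. What part these cell-cycle genes have in the chaperone values was not tested.

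**Figure D5:**
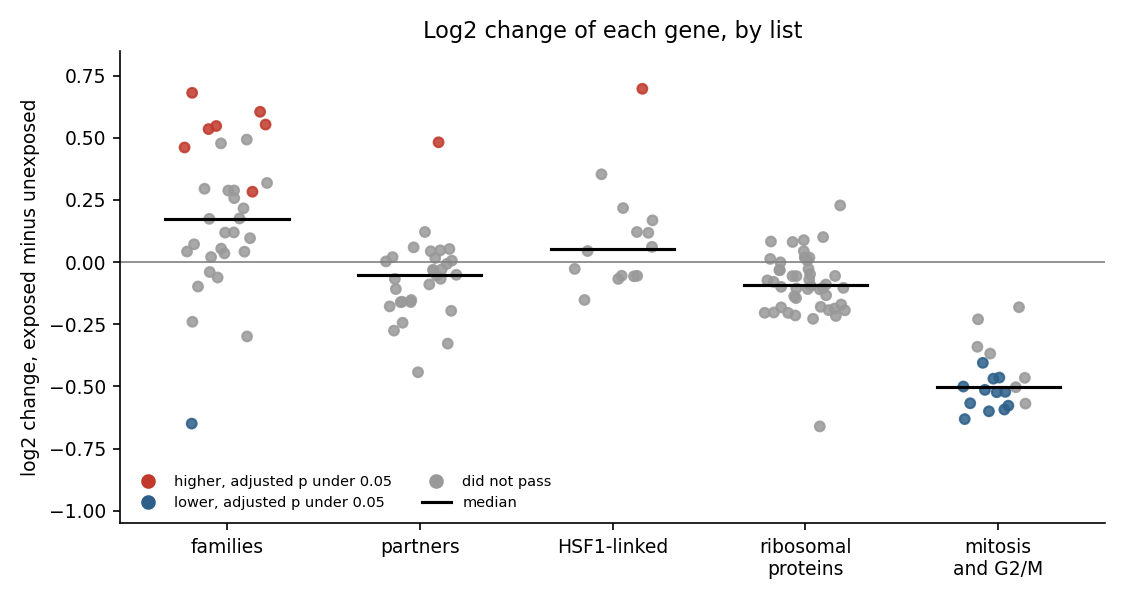
Log2 change (exposed minus unexposed) of each measured gene in the families described, in the partner list, among further HSF1-linked genes, ribosomal proteins and mitosis genes; colour marks an adjusted p under 0.05, black lines are medians. The medians are 0.17, -0.05, 0.05, -0.09 and -0.50 from left to right, and the points of the families spread from -0.65 to 0.68.

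The arrays of a group differed among themselves. Of the 7 members that rose, exposed replicate 3 held the lowest exposed value in 4 (HSPA1A, HSPA1B, HSPH1 and HSPB1) and the highest in 0, and exposed replicate 1 held the highest in 5. Among unexposed arrays replicate 2 held the lowest value in 4 of the 7 and replicate 3 the highest in 5. The median deviation of the 32 members from their own means was 0.14, 0.05 and 0.07 on the exposed arrays, against -0.10, -0.11 and -0.11 on the unexposed arrays, a description of members chosen with results known.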

How the data were processed

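Total RNA of 6 U-87 MG cultures was measured on 1-colour Affymetrix arrays, 1 array per culture. The deposited values are log2 expression per probe set made by the authors with RMA (background correction, normalization between arrays, summary of probes), and Affymetrix Expression Console 3.0 and Transcriptome Analysis Console 3.0 are named per the submitters' processing notes; other settings are not stated there. The table holds no detection calls, and precision is limited by having 6 arrays. RMA makes the distributions alike, so a change in total RNA per cell would not show.

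Of 53617 probe sets 16098 carried 1 gene symbol in the platform annotation. Probe sets with no symbol or with more than 1 were left unnamed here. All probe sets entered 1 linear model (limma 3.58.1, R 4.3.3; lmFit and eBayes with a trend of variance on level, two-sided, no covariates, no filter), and p-values were adjusted by Benjamini-Hochberg over the 14884 genes, with a threshold of 0.05. Intervals are 95% intervals of the fit, not adjusted for the number of genes. The procedure was tested on simulated arrays with values drawn independently for each probe set. They hold no shift shared across an array, so that test cannot speak to the dependence of the calls on single arrays. The members, the gene lists and the rule for named genes were chosen with earlier results of these data known, so nothing here is independent support for a pattern seen before. That rule takes every member past the threshold, HSPA1A, HSPA1B and HSF1, and from each role group and outside list the 2 smallest p-values per direction; other members, MRPL18, EGFR, SOX2, S100B, CD68 and CSF1R were named after their values were seen. Alternatives covered normalization, centring, variance model, dim probe sets, choice of probe set, adjustment, the replicate block and each array left out.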

Additional observations from a re-analysis of the deposited data

How the results depend on the processing

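The 7 higher and 1 lower members were the same 8 genes with quantile normalization again, over probe sets above the median level and with probe sets averaged per gene. With arrays centred on their medians 5 were higher and 1 lower, with adjustment over all probe sets 4 and 1, and with ribosomal protein genes as the centre 6 and 0. Both counts were 0 without a mean-variance trend, and 1 and 0 without variance moderation, where PPID passed. With a replicate block they were 0 and 0. Without the trend 11 members had an unadjusted p under 0.05, beside 1078 higher and 1142 lower of all 14884 genes. With the block 15 members had one, beside 1070 higher and 1216 lower of all genes. Deviations of same-numbered arrays from their group means correlated at -0.03 to 0.01, and those of differently numbered arrays at -0.02 to 0.04. These values cannot tell whether cultures with the same number were handled together. With 1 array left out, 0 to 5 members were higher and 0 to 1 lower. Over all genes the 208 higher and 248 lower became 0 and 0 with the replicate block and without the trend, 4 and 0 without moderation, 138 and 115 with ribosomal centring, 321 and 432 above the median level, 72 and 90 adjusted over all probe sets, 521 and 688 with a fit on 1 probe set per gene (chosen after seeing the data, where FKBP7, HSF1 and HSPA12A passed too), and 0 to 142 and 0 to 183 with 1 array left out. HYOU1 and HMOX1, 1 gene in each outside list, gave 0 with the replicate block, without the trend and without moderation. With 1 array left out the count of higher partners was 0 and that of higher HSF1-linked genes 0 to 1. Lower partners became 1 above the median level and 2 with 1 probe set per gene, where higher HSF1-linked genes became 2. The median over members was 0.26 with ribosomal centring, which moves the median of all genes to 0.09, and 0.22 above the median level. Signs turned with 1 array left out for DNAJC27-AS1 (-0.0905 to 0.163), DNAJC9-AS1 (-0.0980 to 0.384), FKBP5 (-0.286 to 0.0109), FKBP9P1 (-0.122 to 0.321), FKBPL (-0.140 to 0.0291), HSPA7 (-0.207 to 0.138), HSPA9 (-0.00652 to 0.0459), HSPB3 (-0.0988 to 0.178), HSPBAP1 (-0.0769 to 0.142) and HSPD1 (-0.0282 to 0.122), and with ribosomal centring for FKBPL (0.0273), HSPA7 (0.0493) and CACYBP (0.0322). The cause of these shifts was not tested, apart from fewer arrays where 1 was left out.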
